A study of Mus musculus with 4 samples.

Results

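The genes described here are 51 mouse genes that run chromosome condensation, the mitotic spindle, the kinetochore and the division of the cell. They were chosen by symbol, as a named list, with earlier results of these data known. All 51 were found among the 17550 genes with at least 1 read. The 4 libraries came from total RNA of the left ventricle of C57BL/6 mice aged 8 weeks, taken 3 days after an induced myocardial infarction. The groups were infarcted tissue labelled Neil3-/-, non-infarcted tissue labelled Neil3-/-, infarcted wild-type tissue and non-infarcted wild-type tissue, with 1 library in each. All 4 groups come from hearts with an infarction, so that non-infarcted tissue is not tissue of an unoperated animal. Whether 1 mouse or a pool stands behind a library is not stated, and neither is the deleted part of Neil3, a gene for a DNA glycosylase.

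A dividing cell first makes cyclins A and B, which switch on the kinase Cdk1 and start mitosis. Condensin and topoisomerase II compact and untangle the chromosomes, and kinetochores built on the centromeres attach them to spindle microtubules. The spindle checkpoint holds back the anaphase-promoting complex (APC/C), a ubiquitin ligase, until all chromosomes are attached. The ligase then destroys securin and cyclin B, separase opens the cohesin rings, and kinesins, the central spindle and a contractile ring part the daughter cells. Most adult cardiomyocytes do not divide, whereas fibroblasts, endothelial cells and leukocytes of a healing infarct can. Transcripts of these genes accumulate late in the cell cycle, largely under the MuvB complex with B-Myb and FoxM1.

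The libraries held 18.2 and 14.3 M uniquely assigned reads for infarcted and non-infarcted tissue labelled Neil3-/-, and 17.3 and 14.9 M for infarcted and non-infarcted wild-type tissue. Levels are RPKM, reads scaled to gene length and to the library total, unless RPM, reads scaled to the library total alone, is named. The least covered of the 51 genes had 151 reads over the 4 libraries and the best covered 18475, and the lowest count in any library was 19 reads. With 1 library in a group there was no replicate check and no test, so intervals in parentheses are exact Clopper-Pearson 95% intervals that cover counting error only, and a gene was called when its RPKM ratio reached 2-fold. Neil3 itself was at 18.5 and 12.0 RPKM in infarcted and non-infarcted tissue labelled Neil3-/-, against 3.95 and 1.83 RPKM in infarcted and non-infarcted wild-type tissue. Loss of the whole transcript would give the reverse order, but as the deleted part is not stated, this level does not check the label. Neil3 reads covered 71.51% and 62.88% of its length in infarcted and non-infarcted tissue labelled Neil3-/-. In infarcted and non-infarcted wild-type tissue they covered 73.4% and 63.36%. Genotypes are given as labelled throughout. The cardiomyocyte markers (8 of 8 found, none at 0 reads) summed to 18819 and 58843 RPM in infarcted and non-infarcted tissue labelled Neil3-/-, and to 29368 and 63466 in infarcted and non-infarcted wild-type tissue.

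Summed, the 51 mitotic genes were higher in infarcted than in non-infarcted tissue of both genotypes and highest in the infarcted library labelled Neil3-/-. Together they made up 2897 RPM in infarcted and 1264 in non-infarcted tissue labelled Neil3-/-, a ratio of 2.29 (2.25 to 2.33). In wild-type tissue they made up 2004 RPM in infarcted and 1093 in non-infarcted tissue, a ratio of 1.83 (1.8 to 1.87). In bulk tissue, more dividing cells and more of these transcripts per cell cannot be told apart, nor can fewer cells of another type and less RNA per cell. Of the 51 genes, 50 had their highest level in the infarcted library labelled Neil3-/-, and securin (Pttg1) was the exception. The order from infarcted labelled Neil3-/- through infarcted wild type and non-infarcted labelled Neil3-/- to non-infarcted wild type was shown by 43 of the 51 genes, against 23.4% of 13512 genes with reads in all 4 libraries.

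**Figure D1:**
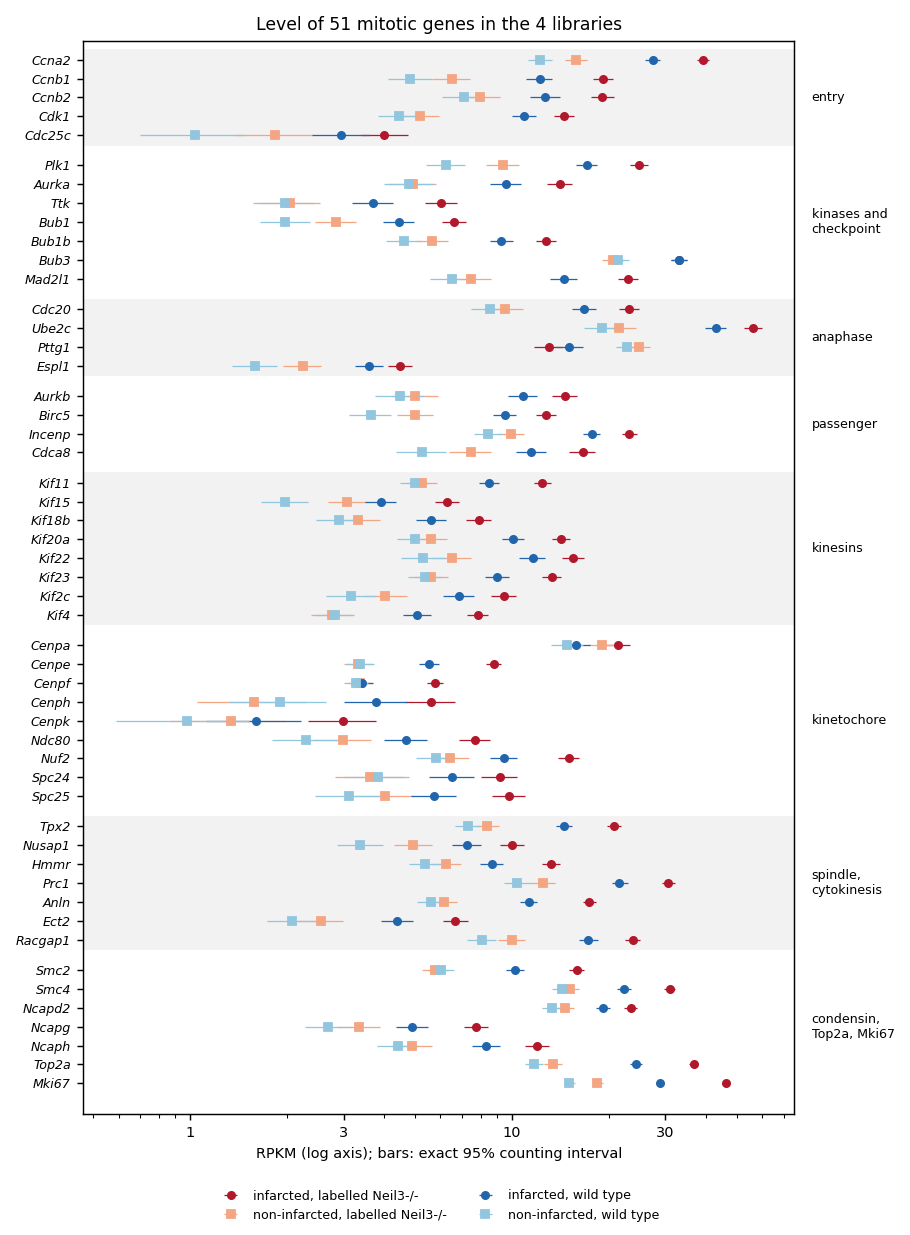
Level of each of the 51 genes in the 4 libraries, in RPKM on a log axis, grouped by role, with exact 95% counting intervals as bars. The infarcted library labelled Neil3-/- (red circles) lies highest for 50 genes, and the median level over the 51 genes was 14.1 RPKM there, 5.62 in non-infarcted tissue labelled Neil3-/-, 9.61 in infarcted and 4.99 in non-infarcted wild-type tissue.

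In tissue labelled Neil3-/-, 46 of the 51 genes were 2-fold or more higher in the infarct and 0 were 2-fold lower, where 13.1% of all 13514 compared genes were 2-fold higher and 8.17% lower. In wild-type tissue 25 of 51 were at least 2-fold higher and 0 lower, where 11.0% of 13516 compared genes were higher and 5.56% lower. The median log2 ratio of the 51 genes was 1.28 labelled Neil3-/- and 1.0 in wild type, beside medians over all compared genes of 0.27 labelled Neil3-/- and 0.24 in wild type. TMM scaling, which sets those all-gene medians to 0.04 labelled Neil3-/- and 0.02 in wild type, left 32 genes called higher and 1 lower labelled Neil3-/- (7.75% of all genes higher and 11.4% lower). In wild type it left 6 called higher and 0 lower (6.75% of all genes higher and 8.76% lower). Many of the wild-type ratios lie close to 2-fold: 47 of the 51 were at least 1.5-fold higher there as deposited (27.5% of all genes) and 37 under TMM scaling (17.1%). Labelled Neil3-/-, 49 of the 51 were at least 1.5-fold higher as deposited (30.4% of all genes).

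**Figure D2:**
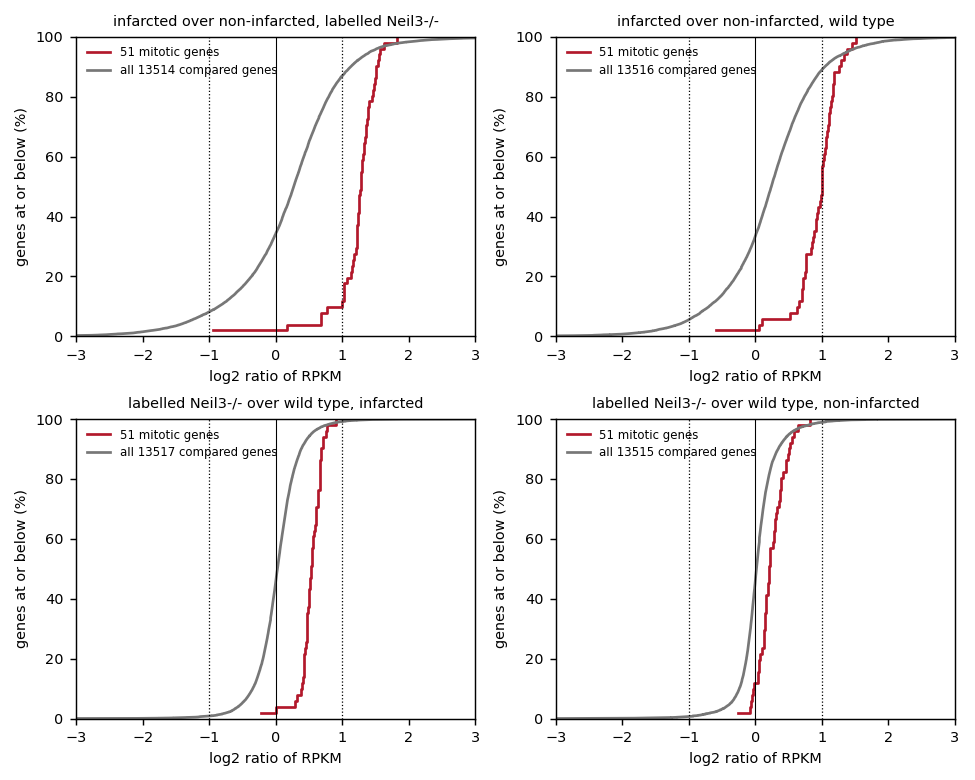
Cumulative share of genes, in percent, at or below each log2 RPKM ratio, for the 51 mitotic genes (red) and all compared genes (grey) in the 4 comparisons, with dotted lines at 2-fold. The red median lies right of the grey one in each panel. For the infarct ratio the medians are 1.28 against 0.27 labelled Neil3-/- and 1.0 against 0.24 in wild type. For genotype they are 0.52 against 0.03 in infarcted tissue and 0.20 against 0.02 in non-infarcted tissue.

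Promoter sequences are shown because these genes moved together and share 2 known elements: the cell cycle homology region (CHR), bound by MuvB complexes, and the CCAAT box, bound by NF-Y. The RefSeq promoter table for GRCm38.p6, another build than that of the deposited files, held windows from 250 bases before to 50 bases after the start for 43 of the 51 genes. The CHR letters TTTGAA, read on either strand (TTCAAA on the other), stood in 32 of these 43 genes (74.4%), against 20.2% of 27025 genes in the table and 14.3% of the 10700 compared genes found there. The CCAAT letters, read on either strand (ATTGG on the other), stood in 33 of 43 (76.7%), against 41.1% of all genes in the table and 42.6% of compared genes. Both were found in 28 of 43 (65.1%), against 8.97% of all genes in the table and 6.88% of compared genes. DNA replication genes, which peak earlier in the cycle, held the CHR letters in 3 of 26 (11.5%) and the CCAAT letters in 17 of 26 (65.4%). The 150 bases before the start are given for 5 genes that hold both elements, from 4 of the 8 roles, and for Pttg1, the gene that differed from the rest. Capitals mark the letters of both elements on either strand, and each sequence runs 5′ to 3′ on the gene's strand.
Ube2c (chr2:164769779-164769928, plus strand): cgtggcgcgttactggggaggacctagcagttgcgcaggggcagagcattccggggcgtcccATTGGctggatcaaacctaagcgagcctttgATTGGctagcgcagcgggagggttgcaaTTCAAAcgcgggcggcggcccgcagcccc
Cdk1 (chr10:69352913-69353062, minus strand): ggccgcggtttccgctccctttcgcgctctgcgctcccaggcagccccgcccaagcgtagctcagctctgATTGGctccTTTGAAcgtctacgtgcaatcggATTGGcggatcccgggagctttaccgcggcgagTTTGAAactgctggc
Top2a (chr11:99024190-99024339, minus strand): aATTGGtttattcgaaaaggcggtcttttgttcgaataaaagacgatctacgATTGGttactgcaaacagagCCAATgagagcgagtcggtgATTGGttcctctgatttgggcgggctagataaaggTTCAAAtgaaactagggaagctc
Kif11 (chr19:37376232-37376381, plus strand): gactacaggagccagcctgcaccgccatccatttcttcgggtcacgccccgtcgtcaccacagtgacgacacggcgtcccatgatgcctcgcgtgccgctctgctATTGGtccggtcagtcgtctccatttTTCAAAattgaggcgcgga
Espl1 (chr15:102296143-102296292, plus strand): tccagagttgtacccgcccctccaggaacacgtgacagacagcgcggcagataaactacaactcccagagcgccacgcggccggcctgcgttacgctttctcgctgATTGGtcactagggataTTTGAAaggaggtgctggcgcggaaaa
Pttg1 (chr11:43425982-43426131, minus strand): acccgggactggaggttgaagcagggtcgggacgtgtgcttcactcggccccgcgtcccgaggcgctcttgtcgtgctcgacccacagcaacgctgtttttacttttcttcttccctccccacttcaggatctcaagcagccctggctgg
Cdk1 held 2 matches of each element in these bases, and Top2a held 4 CCAAT matches, spread over both strands. Neither set of letters stood in the 150 bases of Pttg1. Among the 43 genes, those with and without the CHR letters had similar ratios. The 32 with it had a median infarct log2 ratio of 1.26 labelled Neil3-/- and 0.98 in wild type, and the 11 without it had 1.29 labelled Neil3-/- and 1.0 in wild type.

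All 5 genes of mitotic entry reached a 2-fold higher level in infarcted tissue labelled Neil3-/- (13.1% of all compared genes), and 4 of 5 in wild-type tissue (11.0%). TMM scaling left 4 of 5 labelled Neil3-/- (7.75% of all genes) and 3 in wild type (6.75%). Ccna2, cyclin A2, was at 39.2 and 15.8 RPKM in infarcted and non-infarcted tissue labelled Neil3-/-, and at 27.4 and 12.2 in infarcted and non-infarcted wild-type tissue. It was the most abundant of the 5 in each library, and its infarct ratios were 2.48 (2.27 to 2.72) labelled Neil3-/- and 2.24 (2.02 to 2.48) in wild type. Its exons overlap those of Exosc9 on the opposite strand, and whether reads were counted by strand is not stated. The same limit holds for 10 further genes whose exons overlap a protein-coding gene on the opposite strand: Cdc25c, Cdc20, Ube2c, Cdca8, Kif20a, Kif4, Cenpk, Nusap1, Prc1 and Ncapg. Plk1, Kif22, Ncapd2 and Top2a overlap non-coding or provisional genes. Ccnb1, cyclin B1, the partner of Cdk1 that starts mitosis, was at 19.2 and 6.5 RPKM in infarcted and non-infarcted tissue labelled Neil3-/-, and at 12.2 and 4.84 in infarcted and non-infarcted wild-type tissue. Ccnb2, cyclin B2, was at 19.1 and 7.95 RPKM labelled Neil3-/-, infarcted and non-infarcted, and at 12.7 and 7.1 in infarcted and non-infarcted wild-type tissue. Both B cyclins were high in infarcted tissue of either genotype, but at 1.79 (1.48 to 2.17) the wild-type ratio of Ccnb2 was under 2-fold, and Ccnb1 had one of the highest ratios labelled Neil3-/-, 2.96 (2.55 to 3.46). Named pseudogenes of both B cyclins exist, and reads that match both gene and pseudogene could have been lost or misplaced in a count of uniquely assigned reads. Cdk1 itself was 2.8-fold (2.4 to 3.27) higher in infarcted tissue labelled Neil3-/- and 2.45-fold (2.08 to 2.91) in wild-type tissue.

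Cdc25c, the phosphatase that activates Cdk1, was the least abundant of the 5. Its level was 4.02 and 1.84 RPKM in infarcted and non-infarcted tissue labelled Neil3-/-, and 2.95 and 1.04 in infarcted and non-infarcted wild-type tissue. Non-infarcted wild-type tissue was low, so that its infarct ratio was 2.19 (1.58 to 3.07) labelled Neil3-/- and 2.85 (1.88 to 4.44) in wild type, the highest wild-type ratio of the 51 genes. It was 1 of 6 genes whose infarct ratio was smaller labelled Neil3-/- than in wild type. The ratio of both infarct ratios was 0.768, and its interval of 0.439 to 1.33 includes 1. Its exons also overlap another gene on the opposite strand.

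Of the 7 genes for mitotic kinases and the spindle checkpoint, 6 reached a 2-fold higher level in infarcted tissue labelled Neil3-/- (13.1% of all compared genes). In wild-type tissue 5 did (11.0%). TMM scaling left 4 of 7 labelled Neil3-/- (7.75% of all genes) and 1 in wild type (6.75%). Plk1, a kinase that acts from centrosome maturation to cytokinesis, was at 24.9 and 9.37 RPKM in infarcted and non-infarcted tissue labelled Neil3-/-, and at 17.1 and 6.25 in infarcted and non-infarcted wild-type tissue. Both infarcted libraries stood above both non-infarcted ones, with nearly the same infarct ratio labelled Neil3-/-, 2.65 (2.33 to 3.03), as in wild type, 2.73 (2.33 to 3.21). Mad2l1, the checkpoint protein that holds Cdc20 inactive, was at 23.0 and 7.46 RPKM in infarcted and non-infarcted tissue labelled Neil3-/-, and at 14.5 and 6.5 in infarcted and non-infarcted wild-type tissue. Its infarct ratio was 3.08 (2.61 to 3.64) labelled Neil3-/- and 2.23 (1.86 to 2.68) in wild type.

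Bub3, which recruits Bub1 and BubR1 to kinetochores and is also used outside mitosis, differed from its partners. It was at 33.1 and 20.6 RPKM in infarcted and non-infarcted tissue labelled Neil3-/-, and at 33.1 and 21.4 in infarcted and non-infarcted wild-type tissue. Its level was nearly the same in both infarcted libraries, and its infarct ratio was 1.6 (1.45 to 1.77) labelled Neil3-/- and 1.55 (1.41 to 1.71) in wild type. The partners Bub1 and Bub1b (BubR1) had infarct ratios of 2.33 (1.96 to 2.78) and 2.26 (1.98 to 2.59) labelled Neil3-/-, and of 2.25 (1.83 to 2.77) and 2.01 (1.73 to 2.34) in wild type. The kinases Aurka (Aurora A), which matures centrosomes, and Ttk (Mps1), which starts checkpoint signalling, had larger ratios labelled Neil3-/- than in wild type. For Aurka they were 2.86 (2.36 to 3.49) labelled Neil3-/- and 2.01 (1.63 to 2.47) in wild type. For Ttk they were 2.95 (2.31 to 3.79) labelled Neil3-/- and 1.88 (1.45 to 2.46) in wild type.

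Ube2c, the ubiquitin-conjugating enzyme of the APC/C, had the highest level of the 51 genes in both infarcted libraries. It was at 56.1 and 21.6 RPKM in infarcted and non-infarcted tissue labelled Neil3-/-, and at 43.0 and 19.0 in infarcted and non-infarcted wild-type tissue. Its infarct ratios were 2.59 (2.27 to 2.97) labelled Neil3-/- and 2.27 (1.96 to 2.62) in wild type. Its exons overlap those of Tnnc2 on the opposite strand. Cdc20, the activator of the APC/C that the checkpoint inhibits, was 2.43-fold (2.1 to 2.82) higher in infarcted tissue labelled Neil3-/- and 1.96-fold (1.68 to 2.31) in wild-type tissue. Espl1, separase, was at 4.48 and 2.24 RPKM in infarcted and non-infarcted tissue labelled Neil3-/-, and at 3.6 and 1.59 in infarcted and non-infarcted wild-type tissue. Both infarcted libraries were high, with a ratio of 2.0 (1.71 to 2.36) labelled Neil3-/- and of 2.26 (1.88 to 2.74) in wild type.

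Pttg1, securin, the inhibitor and chaperone of separase, ran the other way from the other 50 genes. It was at 13.0 and 24.8 RPKM in infarcted and non-infarcted tissue labelled Neil3-/-, and at 15.1 and 22.8 in infarcted and non-infarcted wild-type tissue. Both infarcted libraries were low and both non-infarcted ones high, so that Pttg1 was 1.92-fold (1.69 to 2.18) lower in infarcted tissue labelled Neil3-/- and 1.51-fold (1.33 to 1.72) lower in infarcted wild-type tissue. Neither value reached 2-fold as deposited, and with TMM scaling the value labelled Neil3-/- did. In all compared genes, 14.7% labelled Neil3-/- and 12.0% in wild type were at least 1.5-fold lower in infarcted tissue. In non-infarcted tissue Pttg1 had the highest level of the 51 genes in both genotypes, above Ube2c at 21.6 RPKM labelled Neil3-/- and Bub3 at 21.4 RPKM in wild type. Separase and its inhibitor therefore had infarct ratios on opposite sides of 1 in both genotypes. Reads covered 68.26% and 75.03% of the length of Pttg1 in infarcted and non-infarcted tissue labelled Neil3-/-. In infarcted and non-infarcted wild-type tissue they covered 57.89% and 64.43%, where the median over the 51 genes and 4 libraries was 90.7%. Whether the Pttg1 count follows the full-length transcript was not tested.

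**Figure D3:**
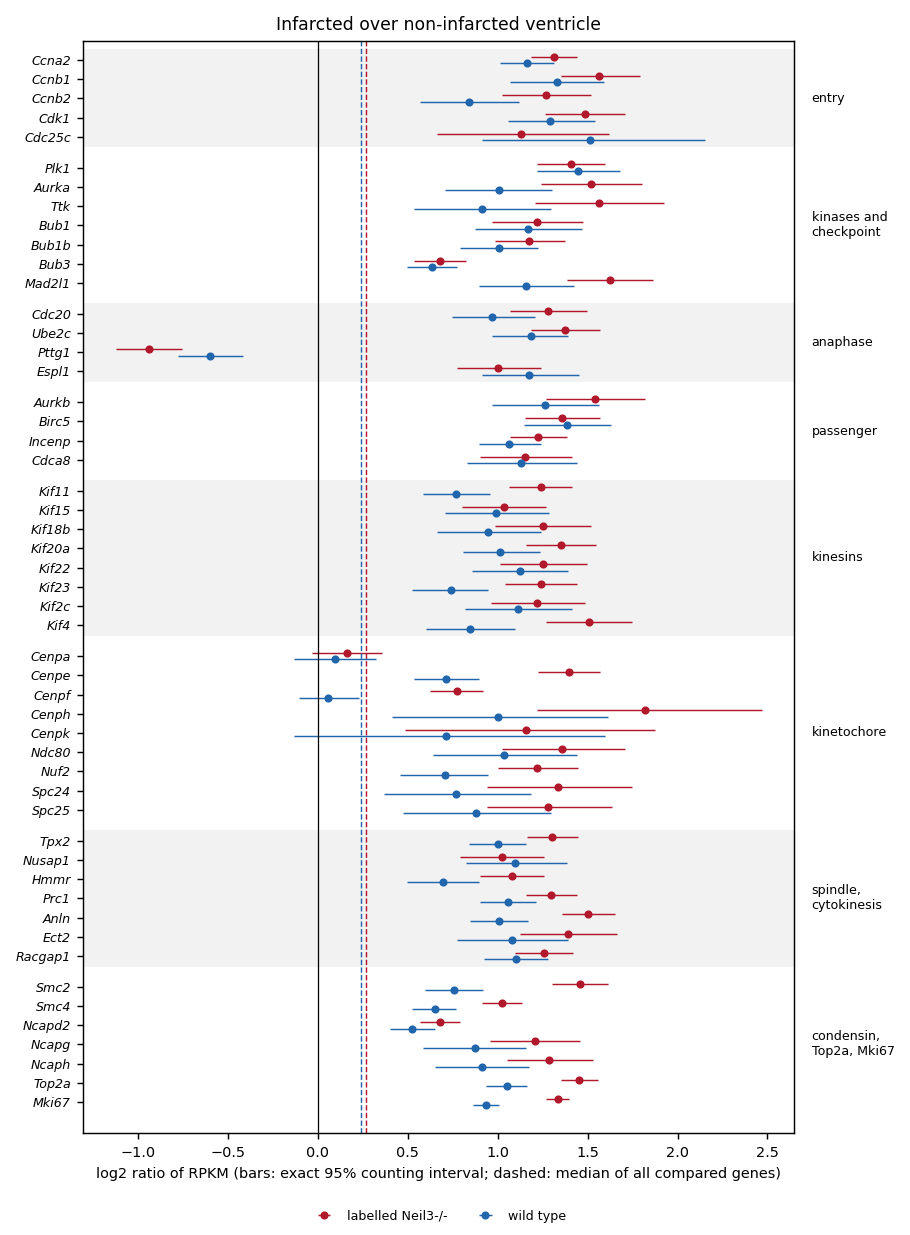
Log2 ratio of RPKM in infarcted over non-infarcted tissue for each of the 51 genes, labelled Neil3-/- (red) and wild type (blue), with exact 95% counting intervals as bars and the all-gene medians of 0.27 labelled Neil3-/- and 0.24 in wild type as dashed lines. Pttg1 alone lies left of 0, at -0.94 labelled Neil3-/- and -0.60 in wild type, while Cenph at 1.82 labelled Neil3-/- and Cdc25c at 1.51 in wild type lie farthest right.

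All 4 subunits of the chromosomal passenger complex reached a 2-fold higher level in infarcted tissue of both genotypes. The shares of all compared genes were 13.1% labelled Neil3-/- and 11.0% in wild type. TMM scaling left 2 of 4 labelled Neil3-/- (7.75% of all genes) and 2 in wild type (6.75%). The passenger complex corrects faulty attachments and moves to the central spindle at anaphase. Incenp, its scaffold, was at 23.2 and 9.92 RPKM in infarcted and non-infarcted tissue labelled Neil3-/-, and at 17.7 and 8.45 in infarcted and non-infarcted wild-type tissue. Cdca8, borealin, was at 16.6 and 7.45 RPKM labelled Neil3-/-, infarcted and non-infarcted, and at 11.5 and 5.24 in infarcted and non-infarcted wild-type tissue. Birc5, survivin, was at 12.8 and 5.0 RPKM labelled Neil3-/-, infarcted and non-infarcted, and at 9.5 and 3.64 in infarcted and non-infarcted wild-type tissue. Infarcted libraries were high for all of them, and the ratio of Birc5 was 2.56 (2.22 to 2.97) labelled Neil3-/- and 2.61 (2.21 to 3.1) in wild type. Aurkb, Aurora B, the kinase of the complex, had ratios of 2.91 (2.41 to 3.53) labelled Neil3-/- and 2.4 (1.96 to 2.96) in wild type. The 4 subunits stayed within 1.81-fold and 1.98-fold of each other in RPKM in infarcted and non-infarcted tissue labelled Neil3-/-, and within 1.86-fold and 2.32-fold in infarcted and non-infarcted wild-type tissue.

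All 8 kinesins reached a 2-fold higher level in infarcted tissue labelled Neil3-/- (13.1% of all compared genes). In wild-type tissue 3 of 8 did (11.0%), and all 8 were at least 1.5-fold higher (27.5%). TMM scaling left 6 of 8 at 2-fold labelled Neil3-/- (7.75% of all genes) and 0 in wild type (6.75%). Kif22, a chromokinesin that pushes chromosome arms to the spindle equator, was at 15.5 and 6.51 RPKM in infarcted and non-infarcted tissue labelled Neil3-/-, and at 11.6 and 5.31 in infarcted and non-infarcted wild-type tissue. Kif20a, a kinesin of the central spindle whose exons overlap those of Cdc23 by up to 977 bases, was at 14.2 and 5.59 RPKM labelled Neil3-/-, infarcted and non-infarcted, and at 10.1 and 4.99 in infarcted and non-infarcted wild-type tissue. These were the most abundant kinesins by mean level, with infarct ratios labelled Neil3-/- of 2.38 (2.02 to 2.82) for Kif22 and 2.55 (2.23 to 2.92) for Kif20a. Kif15, which backs up Kif11 in keeping spindle poles apart, was at 6.3 and 3.08 RPKM labelled Neil3-/-, infarcted and non-infarcted, and at 3.91 and 1.97 in infarcted and non-infarcted wild-type tissue. Kif15 was higher labelled Neil3-/- than in wild type in both tissues. Kif11 (Eg5), the main motor of pole separation, had infarct ratios of 2.36 (2.09 to 2.66) labelled Neil3-/- and 1.7 (1.5 to 1.94) in wild type. The genotype ratio of Kif11 was 1.46 (1.33 to 1.61) in infarcted and 1.05 (0.909 to 1.22) in non-infarcted tissue. Kif4, a chromokinesin that works with Prc1, had infarct ratios of 2.84 (2.41 to 3.36) labelled Neil3-/- and 1.8 (1.52 to 2.14) in wild type, and its exons overlap those of Pdzd11 on the opposite strand. Named pseudogenes of Kif4 and Kif22 exist, with the same limit as for the B cyclins. The microtubule depolymerase Kif2c and the plus-end kinesin Kif18b had ratios of 2.33 (1.95 to 2.8) and 2.38 (1.98 to 2.86) labelled Neil3-/-, and of 2.16 (1.76 to 2.66) and 1.93 (1.58 to 2.36) in wild type.

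Of the 9 kinetochore genes, 7 reached a 2-fold higher level in infarcted tissue labelled Neil3-/- (13.1% of all compared genes). In wild-type tissue 1, Ndc80, did (11.0%). TMM scaling left 5 of 9 labelled Neil3-/- (7.75% of all genes) and 0 in wild type (6.75%). Cenpa, the histone H3 variant that marks centromeres, was at 21.4 and 19.1 RPKM in infarcted and non-infarcted tissue labelled Neil3-/-, and at 15.8 and 14.8 in infarcted and non-infarcted wild-type tissue. Its infarct ratios, 1.12 (0.979 to 1.28) labelled Neil3-/- and 1.07 (0.913 to 1.25) in wild type, have intervals that include 1, and both fall below 1 with TMM scaling. Cenpa thus differed more by genotype than by tissue, with genotype ratios of 1.35 (1.18 to 1.55) in infarcted and 1.29 (1.1 to 1.51) in non-infarcted tissue. Cenpf, a large outer kinetochore protein, was at 5.77 and 3.38 RPKM in infarcted and non-infarcted tissue labelled Neil3-/-, and at 3.42 and 3.28 in infarcted and non-infarcted wild-type tissue. The infarcted library labelled Neil3-/- alone stood apart from the other three for Cenpf. The infarct ratio of Cenpf was 1.71 (1.54 to 1.89) labelled Neil3-/- and 1.04 (0.929 to 1.17) in wild type, where it lies below 1 with TMM scaling. Cenpe, a kinesin of the outer kinetochore, had ratios of 2.63 (2.34 to 2.97) labelled Neil3-/- and 1.64 (1.45 to 1.86) in wild type.

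Cenph and Cenpk belong to the constitutive centromere network and are the thinnest of the 51 genes in reads. Cenph was at 5.59 and 1.58 RPKM in infarcted and non-infarcted tissue labelled Neil3-/-, and at 3.79 and 1.9 in infarcted and non-infarcted wild-type tissue. Its infarct ratio labelled Neil3-/-, 3.53 (2.33 to 5.53), was the highest of the 51 genes, and that in wild type, 2.0 (1.33 to 3.06), was just short of the 2-fold call. Cenpk was at 2.99 and 1.34 RPKM labelled Neil3-/-, infarcted and non-infarcted, and at 1.6 and 0.977 in infarcted and non-infarcted wild-type tissue. Cenpk had the highest genotype ratio of the 51 genes in infarcted tissue, 1.87, with an interval of 1.24 to 2.88, and its exons overlap those of Ppwd1 on the opposite strand.

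Ndc80, Nuf2, Spc24 and Spc25 form the NDC80 complex, the rod that holds microtubules at the kinetochore. Nuf2 was at 15.0 and 6.43 RPKM in infarcted and non-infarcted tissue labelled Neil3-/-, and at 9.44 and 5.81 in infarcted and non-infarcted wild-type tissue. Spc25 was at 9.79 and 4.03 RPKM labelled Neil3-/-, infarcted and non-infarcted, and at 5.72 and 3.11 in infarcted and non-infarcted wild-type tissue. Spc24 was at 9.16 and 3.63 RPKM labelled Neil3-/-, infarcted and non-infarcted, and at 6.53 and 3.83 in infarcted and non-infarcted wild-type tissue. All of these were highest in the infarcted library labelled Neil3-/-, and Ndc80 was lowest of the 4 subunits in each library, at 7.66 and 2.99 RPKM labelled Neil3-/- and 4.69 and 2.29 RPKM in wild type, infarcted before non-infarcted. The infarct ratios labelled Neil3-/- lay between 2.33 (2.0 to 2.73) for Nuf2 and 2.56 (2.03 to 3.27) for Ndc80. In wild type they lay between 1.63 (1.37 to 1.93) for Nuf2 and 2.05 (1.56 to 2.72) for Ndc80.

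All 7 genes of spindle assembly and cytokinesis reached a 2-fold higher level in infarcted tissue labelled Neil3-/- (13.1% of all compared genes). In wild-type tissue 5 of 7 did (11.0%). TMM scaling left 5 of 7 labelled Neil3-/- (7.75% of all genes) and 0 in wild type (6.75%). Prc1, which bundles antiparallel microtubules at the spindle middle and has exons that overlap Rccd1, was at 30.6 and 12.5 RPKM in infarcted and non-infarcted tissue labelled Neil3-/-, and at 21.6 and 10.4 in infarcted and non-infarcted wild-type tissue. Racgap1, the GTPase-activating subunit of centralspindlin, was at 23.8 and 9.98 RPKM labelled Neil3-/-, infarcted and non-infarcted, and at 17.3 and 8.06 in infarcted and non-infarcted wild-type tissue. Both were high in the infarcted libraries, with ratios labelled Neil3-/- of 2.46 (2.23 to 2.71) for Prc1 and 2.39 (2.14 to 2.67) for Racgap1. Kif23, the motor subunit of centralspindlin, had a similar ratio labelled Neil3-/-, 2.36 (2.06 to 2.72), and in wild type 1.67 (1.44 to 1.93), where Racgap1 was at 2.15 (1.9 to 2.43). Ect2, the exchange factor that centralspindlin recruits to activate RhoA, had ratios of 2.62 (2.18 to 3.17) labelled Neil3-/- and 2.11 (1.71 to 2.62) in wild type. Anln, anillin, the scaffold of the contractile ring, had ratios of 2.83 (2.56 to 3.14) labelled Neil3-/- and 2.01 (1.8 to 2.25) in wild type. Among the spindle assembly genes, Tpx2, the activator of Aurora A, had 2.47 (2.24 to 2.73) labelled Neil3-/- and 2.0 (1.79 to 2.23), just short of the 2-fold call, in wild type. The microtubule-binding proteins Nusap1 and Hmmr had 2.03 (1.73 to 2.39) and 2.11 (1.87 to 2.39) labelled Neil3-/-, and 2.14 (1.77 to 2.61) and 1.62 (1.41 to 1.86) in wild type.

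Of the 7 genes for condensin, topoisomerase II and the chromosome surface, 6 reached a 2-fold higher level in infarcted tissue labelled Neil3-/- (13.1% of all compared genes). In wild-type tissue 1, Top2a, did (11.0%). TMM scaling left 4 of 7 labelled Neil3-/- (7.75% of all genes) and 0 in wild type (6.75%). Mki67, which coats mitotic chromosomes and is the Ki-67 antigen used to count dividing cells, was at 46.4 and 18.4 RPKM in infarcted and non-infarcted tissue labelled Neil3-/-, and at 28.8 and 15.1 in infarcted and non-infarcted wild-type tissue. Top2a, the topoisomerase that untangles sister chromatids, was at 36.8 and 13.4 RPKM labelled Neil3-/-, infarcted and non-infarcted, and at 24.3 and 11.7 in infarcted and non-infarcted wild-type tissue. These are the best-covered genes, and their intervals are narrow: Mki67 had ratios of 2.52 (2.41 to 2.63) labelled Neil3-/- and 1.91 (1.82 to 2.01) in wild type, and Top2a of 2.74 (2.55 to 2.94) labelled Neil3-/- and 2.07 (1.91 to 2.24) in wild type. Smc2, 1 of both ATPase subunits common to condensin I and II, was at 15.9 and 5.78 RPKM labelled Neil3-/-, infarcted and non-infarcted, and at 10.2 and 6.04 in infarcted and non-infarcted wild-type tissue. Its partner Smc4 was more abundant per length, at 30.9 and 15.2 RPKM labelled Neil3-/- and 22.3 and 14.3 RPKM in wild type, infarcted before non-infarcted. Smc2 had infarct ratios of 2.75 (2.47 to 3.06) labelled Neil3-/- and 1.69 (1.51 to 1.89) in wild type, against 2.03 (1.88 to 2.2) labelled Neil3-/- and 1.57 (1.44 to 1.7) in wild type for Smc4.

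The other subunits of condensin I are Ncapd2, Ncapg and Ncaph. Ncapd2 was at 23.4 and 14.6 RPKM in infarcted and non-infarcted tissue labelled Neil3-/-, and at 19.2 and 13.3 in infarcted and non-infarcted wild-type tissue. Its infarct ratios were the smallest of the group, 1.6 (1.48 to 1.73) labelled Neil3-/- and 1.44 (1.32 to 1.57) in wild type, and non-coding genes overlap its exons. Ncapg and Ncaph had 2.31 (1.94 to 2.75) and 2.44 (2.07 to 2.89) labelled Neil3-/-, and 1.83 (1.5 to 2.23) and 1.88 (1.57 to 2.26) in wild type. The 5 condensin I genes were less even in level than the passenger complex: the highest was 4.0-fold and 4.54-fold the lowest in infarcted and non-infarcted tissue labelled Neil3-/-, and 4.55-fold and 5.31-fold in infarcted and non-infarcted wild-type tissue.

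Between genotypes, 50 of the 51 genes had a log2 ratio above 0 in infarcted tissue, against 54.6% of all 13517 compared genes, with a median of 0.52 beside 0.03 over all. None was 2-fold apart, where 0.858% of all genes were 2-fold higher and 0.851% lower labelled Neil3-/-. At 1.5-fold, 19 of 51 were higher and 0 lower labelled Neil3-/- (4.0% of all genes higher, 3.65% lower), and with TMM scaling 15 were higher (3.57% of all genes). The counting interval lay above 1 for 49 of the 51 genes, against 24.0% of all compared genes, and below 1 for 1, against 18.3%. It included 1 for Bub3, at 1.0 (0.923 to 1.08), a gene that falls just below 1 with TMM scaling, and lay below 1 for Pttg1, which was 1.16-fold (1.01 to 1.33) lower labelled Neil3-/-. After Cenpk, the highest ratios were 1.71 (1.4 to 2.09) for Spc25 and 1.69 (1.53 to 1.86) for Cenpf, and 6 of the 19 genes at 1.5-fold belonged to the 9 of the kinetochore. Ncapd2, at 1.22 (1.14 to 1.31), followed Pttg1 and Bub3 at the low end.

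In non-infarcted tissue the same comparison gave smaller values, with a median log2 ratio of 0.20 beside 0.02 over 13515 compared genes and 45 of 51 genes above 0, against 53.8% of all genes. None of the 51 was 2-fold apart, where 1.08% of all genes were 2-fold higher and 0.681% lower labelled Neil3-/-. Cdc25c at 1.77 (1.11 to 2.88) and Kif15 at 1.56 (1.26 to 1.95) were the 2 genes at least 1.5-fold higher, a share near that of all genes (3.85%), 0 were 1.5-fold lower (2.34% of all genes), and Plk1 followed at 1.5 (1.25 to 1.8). The counting interval lay above 1 for 19 genes and included 1 for 32, and over all genes it lay above 1 for 14.2%. The lowest ratios were those of Cenph at 0.834 (0.489 to 1.41), Spc24 at 0.948 (0.676 to 1.33) and Smc2 at 0.958 (0.84 to 1.09), all with intervals that include 1.

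**Figure D4:**
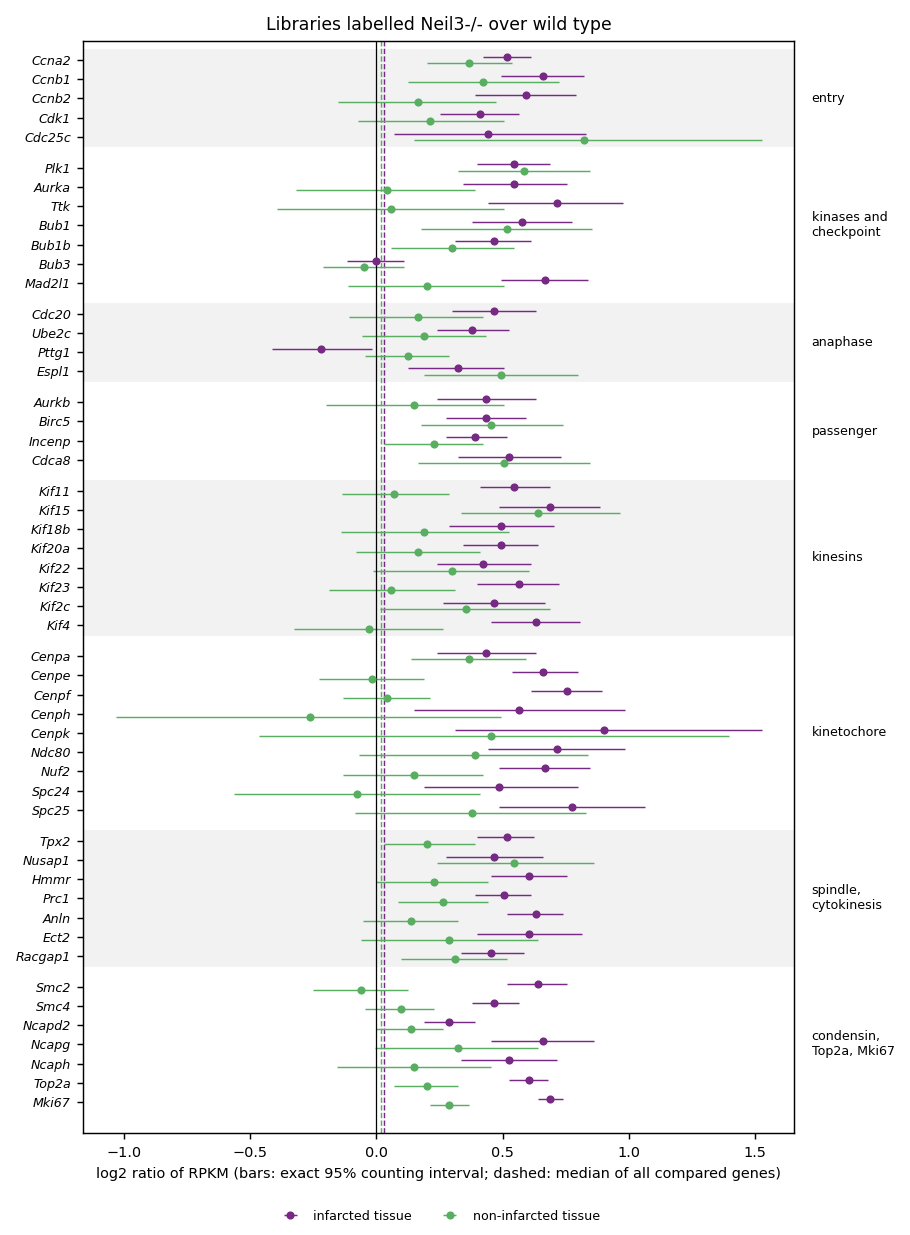
Log2 ratio of RPKM in libraries labelled Neil3-/- over wild type for each of the 51 genes, in infarcted (purple) and non-infarcted tissue (green), with exact 95% counting intervals as bars and the all-gene medians of 0.03 in infarcted and 0.02 in non-infarcted tissue as dashed lines. In infarcted tissue all genes but Pttg1 at -0.22 lie at or right of 0, up to 0.90 for Cenpk, and in non-infarcted tissue values run from -0.26 for Cenph to 0.83 for Cdc25c.

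The infarct ratio was larger labelled Neil3-/- than in wild type for 45 of the 51 genes, against 49.2% of 13512 genes with reads in all 4 libraries. The median difference of the log2 ratios was 0.31, beside -0.01 over all genes, with a range from -0.38 for Cdc25c to 0.82 for Cenph. As 1 library stands behind each value, this difference of differences has no test. The exact counting interval of the ratio of both infarct ratios lay above 1 for 20 of the 51 genes and below 1 for 1. A log-scale interval of the same reads, computed for all genes, lay above 1 for 23 of the 51 genes (13.2% of all genes), Cdc20, Cenph and Spc24 being added, and below 1 for 1 (15.1% of all genes). Cenpf, whose infarct ratio labelled Neil3-/- was 1.64 times (1.4 to 1.91) that in wild type, and Smc2, at 1.63 times (1.39 to 1.9), had exact intervals above 1, as did Cenpe, Kif4, Anln, Top2a and Mki67 among others, whereas that of Cenph, 1.77 (0.962 to 3.26), included 1. Pttg1, at 0.79 (0.659 to 0.946), was the gene with an interval below 1, with a level labelled Neil3-/- that was lower in infarcted tissue, at 13.0 against 15.1 RPKM, and higher in non-infarcted tissue, at 24.8 against 22.8 RPKM in wild type. Espl1, at 0.885 (0.688 to 1.14), had a smaller ratio labelled Neil3-/- with an interval that included 1. All 25 genes 2-fold higher in wild type were also 2-fold higher labelled Neil3-/-, 21 reached 2-fold labelled Neil3-/- alone and 0 in wild type alone. The remaining 5 were Pttg1, Cenpa, Bub3, Cenpf and Ncapd2. Of all compared genes, 13.1% were 2-fold higher labelled Neil3-/- and 11.0% in wild type, and their overlap was not counted. This split depends on scaling, as TMM left 32 genes called higher labelled Neil3-/- and 6 in wild type. Across the 51 genes, both sets of infarct log2 ratios, which share no library, correlated with Pearson's r = 0.776 and Spearman's rho = 0.405. Without Pttg1, the other 50 genes gave r = 0.602 and rho = 0.369. No correlation over all compared genes was computed to set beside these values, and genes are not replicates.

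Genes of the same pathway outside the 51 had like values. These lists too were chosen with earlier results of these data known, so they are not an independent check. Of 49 other mitotic genes found, 39 reached a 2-fold higher level in infarcted tissue labelled Neil3-/- (13.1% of all compared genes) and 24 in wild-type tissue (11.0%). Their median log2 ratios were 1.29 labelled Neil3-/- and 0.99 in wild type. In infarcted tissue their genotype median was 0.50, and 15 of 49 were at least 1.5-fold higher labelled Neil3-/- (4.0% of all compared genes). Cks2, a small Cdk-binding subunit, had the highest infarct ratio labelled Neil3-/- among them, 3.56 (2.85 to 4.49), and Sgol1, the shugoshin that protects centromeric cohesin, the highest in wild type, 2.98 (2.17 to 4.15). The regulators were led by Mybl2 (B-Myb), at 6.62 and 2.59 RPKM in infarcted and non-infarcted tissue labelled Neil3-/- and at 5.76 and 1.89 in infarcted and non-infarcted wild-type tissue. Foxm1 was at 17.7 and 7.7 RPKM labelled Neil3-/-, infarcted and non-infarcted, and at 13.1 and 6.44 in infarcted and non-infarcted wild-type tissue. Both were high in infarcted tissue. Of the 11 regulators, 4 (36.4%) reached 2-fold labelled Neil3-/-, beside 13.1% of all compared genes, and 2 (18.2%) in wild type, beside 11.0%. With TMM scaling 1 of the 11 did so in each genotype (9.09%), beside 7.75% of all genes labelled Neil3-/- and 6.75% in wild type.

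Machinery that mitosis shares with interphase was flatter. Of the 13 core subunits of the APC/C, the ligase that Cdc20 and Ube2c serve, 0 were 2-fold apart in infarcted tissue of either genotype, with median log2 ratios of 0.31 labelled Neil3-/- and 0.36 in wild type, near the all-gene medians. The 9 cohesin genes had medians of 0.56 labelled Neil3-/- and 0.23 in wild type, with 0 at 2-fold. Over all compared genes, 13.1% were 2-fold higher and 8.17% lower labelled Neil3-/-, and 11.0% higher and 5.56% lower in wild type. DNA replication genes had infarct medians close to those of the 51 genes, 1.21 labelled Neil3-/- and 1.01 in wild type, with 29 of 31 at least 2-fold higher labelled Neil3-/- and 16 in wild type. Their genotype median in infarcted tissue was 0.25 beside 0.52 for the 51 mitotic genes. At least 1.5-fold higher labelled Neil3-/- were 2 of 31 (6.45%), near the share of all compared genes (4.0%), against 19 of 51. The 14 cyclins, inhibitors and E2f1 of the G1 phase had infarct medians of 0.66 labelled Neil3-/- and 0.41 in wild type and a genotype median of 0.12 in infarcted tissue.

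**Figure D5:**
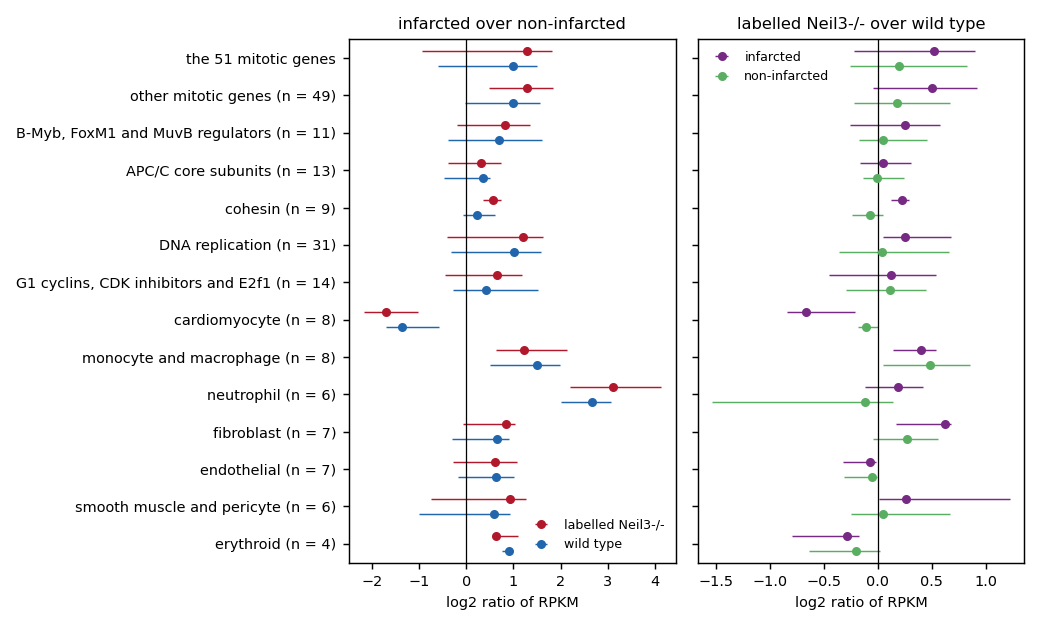
Median log2 RPKM ratio (points) and range (bars) of the 51 mitotic genes, related gene lists and cell type markers, for infarcted over non-infarcted tissue (left) and libraries labelled Neil3-/- over wild type (right). The 51 genes and the 49 other mitotic genes have like medians in each comparison, 0.52 and 0.50 for genotype in infarcted tissue, where DNA replication genes are at 0.25, fibroblast markers at 0.62 and cardiomyocyte markers at -0.66.

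Summed over each list, markers of several cell types moved with the mitotic genes, and their part in these results was not tested. No marker found was at 0 reads in any library. The 8 cardiomyocyte markers were all at least 2-fold lower in infarcted tissue labelled Neil3-/- (8.17% of all compared genes) and 5 of 8 in wild type (5.56%). Their sum was 1.56-fold lower labelled Neil3-/- than in wild type in infarcted tissue and 1.08-fold lower in non-infarcted tissue. The 7 fibroblast markers summed to 19101 and 10818 RPM in infarcted and non-infarcted tissue labelled Neil3-/-, and to 12203 and 8091 in infarcted and non-infarcted wild-type tissue. Their genotype ratio in infarcted tissue, 1.57 (1.56 to 1.57), was near that of the summed mitotic genes, 1.45 (1.43 to 1.46), and in non-infarcted tissue they were at 1.34 (1.33 to 1.35), where the mitotic genes were at 1.16 (1.13 to 1.18). Single fibroblast markers did not all follow their sum. The infarct log2 ratio was above 0 for 6 and below 0 for 1 labelled Neil3-/-, and above 0 for 4 and below 0 for 3 in wild type. The 8 monocyte and macrophage markers summed to 2421 and 1085 RPM labelled Neil3-/-, infarcted and non-infarcted, and to 1793 and 718 in infarcted and non-infarcted wild-type tissue. Their genotype ratio was larger in non-infarcted tissue, 1.51 (1.47 to 1.55), than in infarcted tissue, 1.35 (1.33 to 1.37), the opposite order to the mitotic genes.

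The 6 neutrophil markers showed the largest infarct ratios, with 249 and 35.2 RPM in infarcted and non-infarcted tissue labelled Neil3-/-, and 217 and 35.9 in infarcted and non-infarcted wild-type tissue. Endothelial markers (7 of 7 found) were at 1735 and 1145 RPM labelled Neil3-/-, infarcted and non-infarcted, and at 1832 and 1195 in infarcted and non-infarcted wild-type tissue, so that they were slightly lower labelled Neil3-/-. Smooth muscle and pericyte markers (6 of 6) were at 1577 and 925 labelled Neil3-/- and at 1251 and 897 in wild type, infarcted before non-infarcted. In each genotype 4 of these 6 and 6 of the 7 endothelial markers had an infarct log2 ratio above 0, and the others lay below 0. The lowest smooth muscle and pericyte value was -0.76 labelled Neil3-/- and -1.01 in wild type. Erythroid markers (5 of 5) were at 162 and 89.8 labelled Neil3-/- and at 193 and 103 in wild type, infarcted before non-infarcted. Lymphocyte markers (6 of 6) were at 8.79 and 3.15 labelled Neil3-/- and at 8.86 and 2.01 in wild type, in the same order of tissues. The lymphocyte sums rest on 45 reads in non-infarcted tissue labelled Neil3-/- and 30 in non-infarcted wild-type tissue. Of these 6 markers, 2 had at least 50 reads over the 4 libraries.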

How the data were processed

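Total RNA of the left ventricle was sequenced on an Illumina HiSeq instrument, per the labels. The authors deposited, per library and gene, a count of uniquely assigned reads, an RPKM value and the percent of the gene's length covered by reads, per the file headers. Build mm9 is named in the submitters' processing notes. What aligner, counter, strand setting and annotation were used is not given in the sources used here. The deposited RPKM values were recomputed from reads, listed length and summed unique reads (largest relative error 3.64e-14). Coverage over the 51 genes and 4 libraries had a median of 90.7%.

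Genes with at least 50 reads over the 4 libraries and at least 1 read in both libraries compared were kept, which all 51 passed. The ratio of RPKM, with no added value, was computed for 4 comparisons and called at 2-fold, with 1.5-fold as a second threshold. Intervals are exact 95% Clopper-Pearson intervals of the read share, and for the ratio of infarct ratios an exact conditional interval of 4 counts or, for all genes, a log-scale interval. Reads are not independent molecules, so the intervals cover counting error only. The script was tested on simulated data. No p-value was computed, as each group is 1 library. The members and gene lists were chosen with earlier results of these data known. All 51 genes are accounted for. Values in every library are given for the 2 genes of each role with the highest mean RPKM and for the 3 highest and 3 lowest in each comparison and in the difference of infarct ratios. Of other lists, at most 4 genes with the largest ratio are named. Other scalings (TMM, median of ratios), a second minimum of 200 reads, log2(RPKM + 1) and a restriction to genes without overlapping exons in GENCODE M21 were tried. The last was chosen after seeing the data. Adgre1 was matched under its older symbol Emr1, and Kifc1 and Ly6g were not matched. No sequence is shown for the genes on chromosome 18. Python 3.11.15 with numpy 2.4.6, pandas 2.3.3, scipy 1.17.1 and matplotlib 3.10.9 was used, and R 4.3.3 with edgeR 4.0.16 for TMM factors alone.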

Additional observations from a re-analysis of the deposited data

Results flagged for a closer look

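For 7 genes the genotype log2 ratio, labelled Neil3-/- over wild type, had opposite signs in infarcted and non-infarcted tissue. How many of all compared genes have opposite signs was not counted, so 7 cannot be called many or few. With 1 library in a group, these differences between tissues were not tested. The value given is the log2 ratio in infarcted tissue minus that in non-infarcted tissue. It was 0.82 for Cenph, 0.70 for Smc2, 0.68 for Cenpe, 0.66 for Kif4 and 0.57 for Spc24, all higher labelled Neil3-/- in infarcted tissue and slightly lower in non-infarcted tissue. The non-infarcted genotype ratio of each of these 5 genes has a counting interval that includes 1, with values between 0.834 for Cenph and 0.987 for Cenpe. It was 0.05 for Bub3, whose ratio in infarcted tissue was 1.0 and whose intervals include 1 in both tissues. It was -0.34 for Pttg1, lower labelled Neil3-/- in infarcted tissue and higher, with an interval that includes 1, in non-infarcted tissue.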

How the results depend on the processing

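Under other settings, 43 summary values stayed within their counting interval, or counts within 1.5 times, and 26 did not. Of the values of single genes 486 did, 126 did not, and no called value changed sign. For infarcted over non-infarcted tissue labelled Neil3-/-, the median log2 ratio was 1.04 with TMM, 1.02 with median-of-ratios scaling and 1.14 on the log2(RPKM + 1) scale. With median-of-ratios scaling 28 genes were called, 27 higher and 1 lower. The summed ratio was 1.94 with TMM and 1.91 with median of ratios. For wild type, 6 genes were called with TMM, all higher (6.75% of all genes higher, 8.76% lower), and 6 with median of ratios, all higher. With log2(RPKM + 1) 10 were called, and 15 among the genes without overlapping exons, a smaller set than the 51. At 1.5-fold 48 were called, 47 higher and Pttg1 lower (27.5% of all genes higher, 12.0% lower). Shares of all genes are given here for TMM and for 1.5-fold alone. The wild-type medians were 0.77 with TMM, 0.76 with median of ratios, 0.83 with log2(RPKM + 1) and 0.97 without overlapping exons. The summed ratios were 1.57 with TMM, 1.56 with median of ratios and 1.77 without overlapping exons. For genotype in infarcted tissue, 19 genes were called at 1.5-fold, all higher labelled Neil3-/- (4.0% of all genes higher, 3.65% lower). The genotype medians there were 0.50 with TMM, 0.49 with median of ratios, 0.49 with log2(RPKM + 1) and 0.56 without overlapping exons. The summed ratios there were 1.42 with TMM and 1.41 with median of ratios. For genotype in non-infarcted tissue, 2 genes were called at 1.5-fold, both higher (3.85% of all genes higher, 2.34% lower). The scalings lower the infarct ratios of all genes alike, and the distance of the 51 genes from the all-gene median, 1.01 labelled Neil3-/- and 0.76 in wild type, is the same under each.

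No paired analysis was possible because each group is 1 library and the labels carry no replicate numbers, and leaving out a replicate was not possible for the same reason. Variation between animals is unknown, so that no value can be set against it. Depth limits Cenph, Cenpk and Cdc25c most. For 15 of the 51 genes an exon overlaps another gene, and 4 (Ccnb1, Ccnb2, Kif22 and Kif4) have a pseudogene named after them. Pseudogenes under other names were not searched for.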
